A study of Mus musculus with 7 samples.

Results

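Genes of macrophages and other myeloid cells were followed in whole skin tumours, as a list of 43 genes out of 55423 features in the count table. The genes were chosen by name for their known expression or function in these cells, but with earlier results of these data known. All 43 were found in the table and all 43 had enough reads to be tested. The tumours were cutaneous squamous cell carcinomas of mice on a C57BL/6J background. In the Ivl:BRAFV600E genotype, a tamoxifen-inducible Cre recombinase under the Ivl (involucrin) promoter switched on the oncogene BRAFV600E in the IVL+ epidermal cells. The Ivl:BRAFV600E-SOX2LSL genotype carried the same alleles and, in addition, a Rosa26 allele from which the same recombination released SOX2 together with eGFP. Both groups received topical tamoxifen at 7 to 10 weeks of age according to the labels, and tumours of both were taken at clinical endpoint. Neither the oncogene nor SOX2 was therefore targeted to leucocytes, and what was read from the members came from host cells in the tumour or from any tumour cells that express the same genes. The comparison here asked how the myeloid genes differed between tumours with and without enforced SOX2. The 3 tumours with SOX2 were collected sooner after induction than the 3 without, so genotype and time since induction cannot be told apart.

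The usable data were 3 Ivl:BRAFV600E tumours, from 2 females and 1 male, and 3 Ivl:BRAFV600E-SOX2LSL tumours, from 2 males and 1 female. They are numbered 1 to 3 within each genotype below, and the numbers carry no pairing. Between 23565432 and 31152826 reads were counted on genes per tumour, and 3 reads corresponded to 0.0839 to 0.143 CPM (counts per 1 M mapped to genes, after TMM scaling). Sox2 was at 0.716, 0.508 and 0.238 CPM in the Ivl:BRAFV600E tumours and at 182, 155 and 158 CPM in the Ivl:BRAFV600E-SOX2LSL tumours (log2 fold change 8.35 ± 0.34 SE, adjusted p = 0.000807 by edgeR). The EGFP sequence had 0 reads in the 3 Ivl:BRAFV600E tumours and 139, 110 and 113 CPM in the others, so the reads of each tumour matched the genotype given to it.

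Macrophages are phagocytes that live in every tissue and are supplemented from blood monocytes. They are made and maintained through colony stimulating factor 1 (CSF1), which signals through the receptor CSF1R on the cell surface, and the transcription factor PU.1, encoded by Spi1, is needed for the whole myeloid lineage and binds the promoters and enhancers of many genes listed here. In skin, dermal macrophages take up debris, pathogens and iron-laden haemoglobin through scavenger and lectin receptors, Langerhans cells occupy the epidermis, and in tumours macrophages are known both for inflammatory and for repair programmes.

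Promoter sequences show what some of these genes have in common before any level is compared. RefSeq promoters on GRCm38.p6, each from 250 bases before to 50 bases after the start of transcription, were at hand for 30 of the 43 members, in 37 windows of 300 bases. Those not matched included Adgre1, Cd14, Csf1r, Csf2rb, Itgb2, Lyve1, Msr1, Nos2, Siglec1, Spi1, Tlr4 and Tyrobp. The letters AGGAAGT, a core of the kind that PU.1 and other ETS factors bind, were searched on both strands. They stood in 9 of the 37 member windows (24.3%), those of 8 genes with a pair of overlapping windows for Ptprc, namely Ctss, Fcgr1, Fcgr4, Folr2, Lyz2, Mrc1, Ptprc and Spp1, and in 9.35% of all 32851 windows of that length. The letters TATAAA, the core of the TATA box, stood in 8 member windows (21.6%), against 13.6% of all windows. Matches of the 2 motifs did not overlap in the windows shown. A match is a description of the letters, and it does not show that a factor is bound. The windows below are shown for Ptprc and Tlr2, which passed the test between genotypes below and had a window, and for the macrophage genes Ctss, Lyz2 and Mrc1, which hold the ETS letters. Capitals mark the matches on either strand, and the Tlr2 window held neither motif.
Ptprc (chr1:138175256-138175555, minus strand): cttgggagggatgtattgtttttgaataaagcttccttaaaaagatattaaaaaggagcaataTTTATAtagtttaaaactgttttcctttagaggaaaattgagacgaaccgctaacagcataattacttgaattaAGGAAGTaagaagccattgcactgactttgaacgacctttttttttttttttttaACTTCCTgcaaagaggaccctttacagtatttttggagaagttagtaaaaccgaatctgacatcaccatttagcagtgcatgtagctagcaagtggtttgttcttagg
Tlr2 (chr3:83841559-83841858, minus strand): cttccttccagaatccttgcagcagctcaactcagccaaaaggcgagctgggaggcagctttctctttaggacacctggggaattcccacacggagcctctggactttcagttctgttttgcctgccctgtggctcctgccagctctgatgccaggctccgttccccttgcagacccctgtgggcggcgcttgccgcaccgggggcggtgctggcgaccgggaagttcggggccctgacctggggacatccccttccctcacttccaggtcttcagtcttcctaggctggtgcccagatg
Ctss (chr3:95526536-95526835, plus strand): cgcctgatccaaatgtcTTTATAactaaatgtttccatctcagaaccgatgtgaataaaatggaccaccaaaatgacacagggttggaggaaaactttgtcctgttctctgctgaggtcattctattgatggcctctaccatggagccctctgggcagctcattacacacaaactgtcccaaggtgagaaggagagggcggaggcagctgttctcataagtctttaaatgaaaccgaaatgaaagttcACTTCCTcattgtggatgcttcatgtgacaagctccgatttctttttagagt
Lyz2 (chr10:117282223-117282522, minus strand): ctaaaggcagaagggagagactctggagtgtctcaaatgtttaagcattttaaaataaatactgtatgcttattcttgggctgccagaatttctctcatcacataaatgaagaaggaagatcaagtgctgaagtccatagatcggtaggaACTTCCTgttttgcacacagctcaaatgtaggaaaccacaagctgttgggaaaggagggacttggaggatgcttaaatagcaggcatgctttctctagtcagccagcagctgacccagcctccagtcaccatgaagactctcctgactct
Mrc1 (chr2:14229164-14229463, plus strand): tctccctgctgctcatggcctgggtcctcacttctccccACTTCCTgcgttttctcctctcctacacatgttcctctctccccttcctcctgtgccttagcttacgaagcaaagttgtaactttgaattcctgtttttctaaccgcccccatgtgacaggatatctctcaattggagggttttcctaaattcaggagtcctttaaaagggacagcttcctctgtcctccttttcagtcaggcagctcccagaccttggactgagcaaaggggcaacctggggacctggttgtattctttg

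Nearly the whole list was higher in Ivl:BRAFV600E-SOX2LSL tumours. Of the 43 members, 41 had a log2 fold change above 0, against 52.8% of all 24433 genes tested, 39 lay above 1 and 12 above 2. The median over the members was 1.65 on the log2 scale, and over all genes it was 0.04. Because the list was chosen with earlier results of these data known, its shares beside those of all genes describe it and are not a test. By edgeR's quasi-likelihood test with adjustment over all genes, 6 members (14%) rose: the growth factor receptors Csf1r and Csf2rb, the leucocyte genes Ptprc and Spi1, the sensor Tlr2 and the nitric oxide synthase Nos2. Of all genes, 3.90% were called, 2.39% higher and 1.51% lower. By edgeR 0 members were called lower, 1 by DESeq2 (Tlr4) and 0 by limma voom, and the only member below 0 with an unadjusted p under 0.05 in the edgeR test was also Tlr4. The CPM of the 2 genotypes did not overlap for 29 members that were higher (67.4%), against 18.2% of all genes, and for 1 that was lower, against 16.0% of all genes. In bulk tissue, a different number of cells of a type and a different amount of RNA per cell cannot be told apart.

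The adjusted p-values of many members lay close to the threshold of 0.05. In the edgeR test 7 members fell between 0.05 and 0.06 (Csf1, Laptm5, Itgb2, Msr1, Itgam, Fpr1 and Fpr2), 24 of 43 members were under 0.1, against 11.6% of all genes, and 36 had an unadjusted p under 0.05, against 25.7%. The count of 6 moved with the test: DESeq2 called 30 members higher (10.5% of the 20046 genes to which it gave an adjusted p), and limma voom called 3 (2.98% of all genes). With no filter on low counts edgeR called 22 members (5.24% of all genes), and with its own filter on expression 11 of the 40 left (7.37%). With DESeq2 size factors or upper-quartile scaling it called 4 (3.79% and 3.99%). Sex as a covariate left Tlr2 and Nos2 called (0.933%). Leaving out Ivl:BRAFV600E tumour 1 or 2 or Ivl:BRAFV600E-SOX2LSL tumour 2 left 0 calls by edgeR among the members (0.0918%, 0.207% and 0.840% of all genes), while 26, 30 and 35 members had an unadjusted p under 0.05. Leaving out Ivl:BRAFV600E tumour 3 or Ivl:BRAFV600E-SOX2LSL tumour 3 left 2 and 3 calls (0.738% and 1.71%), and leaving out Ivl:BRAFV600E-SOX2LSL tumour 1 gave 7 (6.69%). Over these 6 fits Csf1r, Csf2rb, Ptprc and Spi1 were each called in 1, and Tlr2 and Nos2 each in 2.

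**Figure D1:**
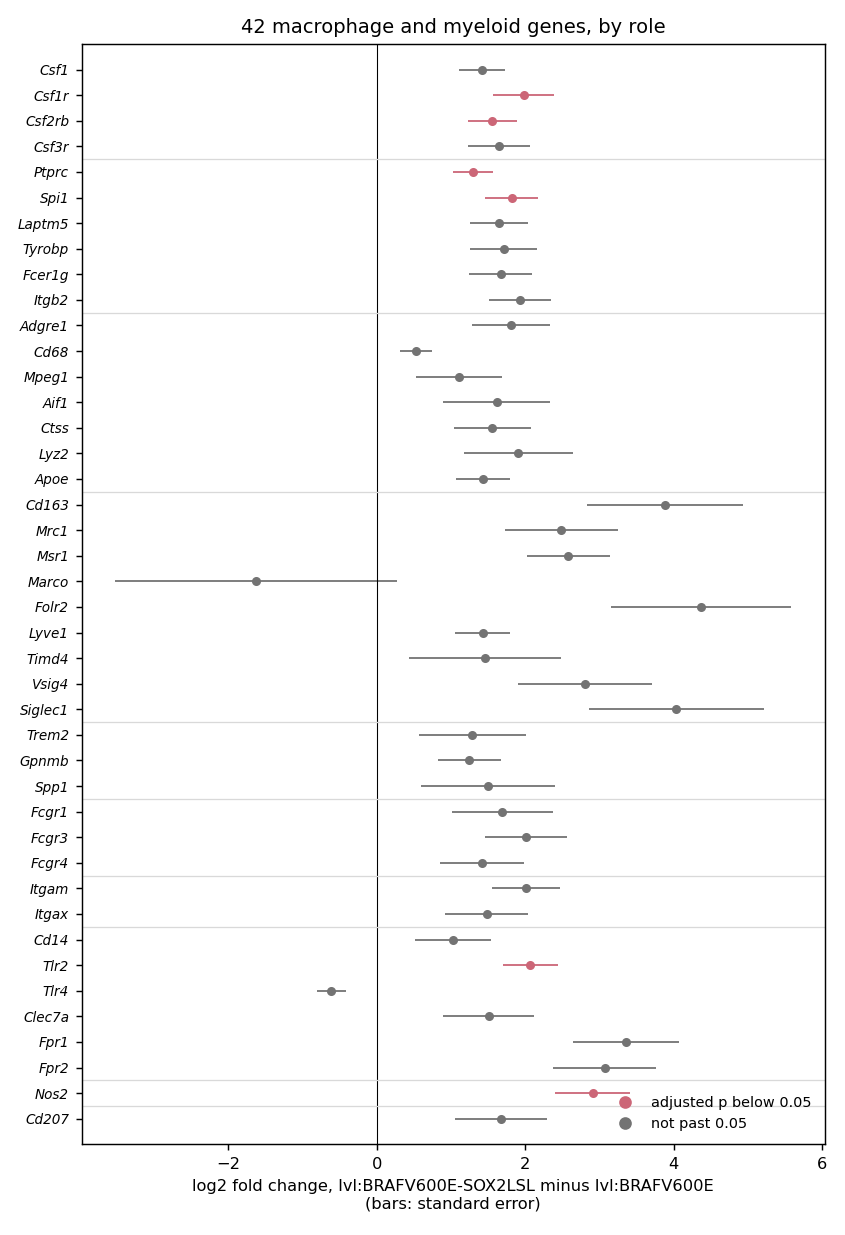
Log2 fold change of 42 members between genotypes, with bars of 1 standard error, ordered by role and separated by grey lines; the vertical line marks no difference. Coloured points are the 6 members with an adjusted p below 0.05 by edgeR, and 40 of the 42 points lie to the right of 0, with Marco and Tlr4 to its left.

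The ligand and receptors of the growth factor axis were higher in every Ivl:BRAFV600E-SOX2LSL tumour than in any Ivl:BRAFV600E tumour, and 2 of the 4 passed the test. Csf1, the ligand that keeps macrophages alive, was at 8.29, 7.44 and 15.8 CPM in Ivl:BRAFV600E tumours and at 34.1, 24.9 and 25.4 CPM in Ivl:BRAFV600E-SOX2LSL tumours. The groups were apart, with Ivl:BRAFV600E tumour 3 the highest of its group, and the log2 fold change was 1.42 ± 0.31 (SE, adjusted p = 0.0540 by edgeR). Its receptor Csf1r was at 13.6, 13.5 and 23.6 CPM without SOX2 and at 108, 50.4 and 41.4 CPM with it. Csf1r thus rose from a mean of 16.9 ± 5.78 to 66.7 ± 36.2 CPM (SD over 3 tumours each), which was 1.98 ± 0.41 on the log2 scale (SE, adjusted p = 0.0483 by edgeR). Ivl:BRAFV600E-SOX2LSL tumour 1 held most of that spread, and without it the Csf1r difference was 1.44 (adjusted p = 0.0257 by edgeR). Of the 6 fits with a tumour left out, only that 1 called Csf1r, and its adjusted p reached 0.184 by edgeR in the others. Exons of Csf1r overlap Hmgxb3 on the opposite strand, and whether the counting used strand was not stated.

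Csf2rb, the shared signalling chain of the receptors for GM-CSF, IL-3 and IL-5, was at 8.39, 10.2 and 19.3 CPM in Ivl:BRAFV600E tumours and at 44.8, 31.5 and 35.3 CPM in Ivl:BRAFV600E-SOX2LSL tumours. It rose by 1.56 ± 0.33 on the log2 scale (SE, adjusted p = 0.0491 by edgeR), with all tumours of one group above all of the other. The gene lies at chr15:78325752-78353847 on GRCm38 near its close copy Csf2rb2, named here after its values were seen, which stood at 8.05, 5.73 and 17.4 against 31.7, 17.5 and 22.1 CPM. Reads of the pair may have been shared, which makes the split between them uncertain. Csf3r, the receptor for the granulocyte factor G-CSF, was lowest in Ivl:BRAFV600E tumour 1, at 3.1 CPM, and at 10 and 10.1 CPM in the other Ivl:BRAFV600E tumours. With SOX2 it was at 26.1, 21.2 and 25.5 CPM (log2 fold change 1.65 ± 0.42 SE, adjusted p = 0.0713 by edgeR).

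The 6 pan-leucocyte members were all without overlap between genotypes, and 2 were called. Some of them, such as Spi1, are myeloid genes and do not mark every kind of leucocyte. Ptprc, which encodes the leucocyte antigen CD45 (chr1:138062861-138175708, GRCm38) and has 2 AGGAAGT matches in the window shown above, was at 10.1, 12.5 and 17.3 CPM in Ivl:BRAFV600E tumours. With SOX2 it was at 43.2, 28.4 and 26.5 CPM, a rise of 1.30 ± 0.27 on the log2 scale (SE, adjusted p = 0.0483 by edgeR). Spi1, the gene of PU.1 (chr2:91082390-91115756), was low in absolute terms, at 1.74, 2.31 and 3.85 against 12.5, 7.42 and 7.95 CPM. It rose by 1.82 ± 0.36 on the log2 scale (SE, adjusted p = 0.0440 by edgeR), and the lowest tumour with SOX2 stood above the highest without.

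The other 4 were Laptm5, a lysosomal protein of blood cells, the signalling adaptors Tyrobp (DAP12) and Fcer1g, and Itgb2, the beta chain of the leucocyte integrins. Laptm5 was at 9.07, 12.6 and 21 against 65.6, 31.9 and 36.7 CPM (log2 fold change 1.65 ± 0.39 SE, adjusted p = 0.0594 by edgeR). Itgb2 was at 3.65, 4.39 and 7.51 against 31.1, 14.2 and 13.8 CPM (1.93 ± 0.42 SE, adjusted p = 0.0524 by edgeR). Tyrobp and Fcer1g had log2 fold changes of 1.71 ± 0.45 and 1.67 ± 0.42 (SE), with adjusted p of 0.0746 and 0.0710 by edgeR. In all 6 genes tumour 1 was the highest of the tumours with SOX2 and tumour 3 the highest of those without.

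**Figure D2:**
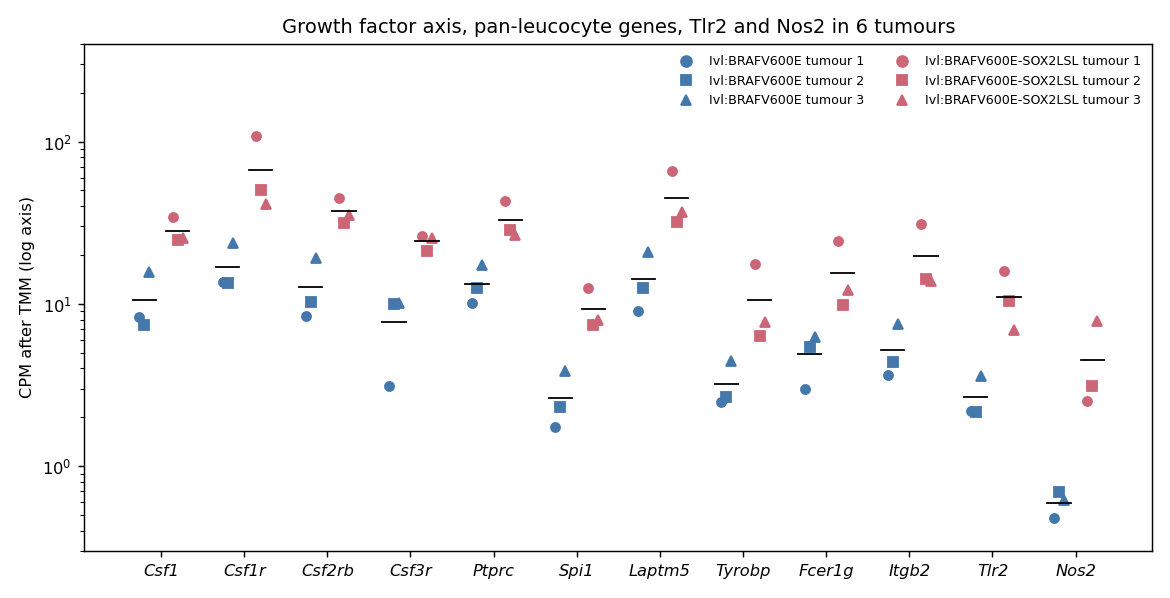
CPM after TMM scaling, on a log axis, of the growth factor axis, the pan-leucocyte genes, Tlr2 and Nos2 in each of the 6 tumours; black lines are group means of 3 tumours. In each of the 12 genes the 3 tumours with SOX2 sit above the 3 without, from 24.9 CPM and up against 15.8 CPM and down for Csf1 to 2.52 CPM and up against 0.693 CPM and down for Nos2.

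The 7 general macrophage members were less even than the pan-leucocyte genes. All had a log2 fold change above 0, from 0.53 to 1.91, but edgeR called 0 of 7 and limma voom 0, DESeq2 called 4, and 5 had an unadjusted p under 0.05 by edgeR. Adgre1, the gene of the mouse macrophage marker F4/80, was at 3.24, 2.59 and 6.7 against 23.9, 12.8 and 7.19 CPM, so that its groups were apart by a narrow margin (log2 fold change 1.81 ± 0.52 SE, adjusted p = 0.0942 by edgeR). Cd68, a lysosomal glycoprotein, differed least. It was at 17.9, 18.8 and 18.1 CPM in the 3 Ivl:BRAFV600E tumours and at 35.1, 21.7 and 22.4 CPM in the others (0.53 ± 0.21 SE, adjusted p = 0.166 by edgeR).

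Mpeg1, which encodes the pore-forming protein perforin-2 of phagocytes, was at 12.4, 17.9 and 24.7 CPM without SOX2 and at 78.7, 20.7 and 18.9 CPM with it. The groups overlapped, and the log2 fold change of 1.11 fell to 0.11 without Ivl:BRAFV600E-SOX2LSL tumour 1 (adjusted p = 0.847 by edgeR). Lyz2, lysozyme of macrophages and neutrophils, was at 15.3, 24.4 and 59.1 against 224, 112 and 33.6 CPM. Its values overlapped as well, since tumour 3 with SOX2 was below tumour 3 without (1.91 ± 0.73 SE, adjusted p = 0.162 by edgeR). The Lyz2 difference was 1.14 without tumour 1 with SOX2 and 2.63 without Ivl:BRAFV600E tumour 3, and reads may be shared with its close copy Lyz1. Ctss, a lysosomal protease of antigen-presenting cells, was at 10.3, 13.6 and 28.4 against 88.4, 35.7 and 30.2 CPM. Apoe, a lipid carrier that is made by macrophages among other cells, was at 79.3, 45 and 114 against 267, 146 and 228 CPM, with no overlap (1.43 ± 0.36 SE, adjusted p = 0.0720 by edgeR). Aif1 reached 3.41 CPM in tumour 1 with SOX2 and stayed between 0.307 and 1.23 CPM in the remaining 5 tumours.

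The scavenger and tissue-resident receptors had a median log2 fold change of 2.58, against 1.65 for all members, and 8 of 9 were above 0. Without Ivl:BRAFV600E-SOX2LSL tumour 1 the median was 1.96 over the 8 still tested, against 1.26 for the members tested. None was called by edgeR or by limma voom, DESeq2 called 7 of 9, and 7 of 9 had an unadjusted p under 0.05 by edgeR. Cd163, the receptor that clears haemoglobin bound to haptoglobin, was at 1.02, 0.0924 and 3.61 CPM in Ivl:BRAFV600E tumours and at 42.6, 17.6 and 8.92 CPM in Ivl:BRAFV600E-SOX2LSL tumours. The groups did not overlap, but both were widely spread, and the log2 fold change was 3.88 ± 1.05 (SE, adjusted p = 0.0805 by edgeR). It was 3.08 without Ivl:BRAFV600E-SOX2LSL tumour 1 and 5.29 without Ivl:BRAFV600E tumour 3, the lowest and highest values with a tumour left out.

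Siglec1, the sialic acid receptor CD169, was at 0.921, 0.185 and 1.57 against 36.6, 5.09 and 2.31 CPM. Its log2 fold change of 4.04 ± 1.18 (SE, adjusted p = 0.0967 by edgeR) was 2.05 without Ivl:BRAFV600E-SOX2LSL tumour 1. Mrc1, the mannose receptor CD206, was at 7.81, 3.74 and 23.8 against 122, 41.9 and 34.3 CPM (2.49 ± 0.76 SE, adjusted p = 0.105 by edgeR). Ivl:BRAFV600E tumour 3 was here close to the tumours with SOX2, and the Mrc1 difference was 3.51 without it and 1.69 without Ivl:BRAFV600E-SOX2LSL tumour 1. Msr1, scavenger receptor A, was at 0.75, 1.52 and 1.85 against 14.4, 6.09 and 4.01 CPM (2.58 ± 0.56 SE, adjusted p = 0.0538 by edgeR, and 1.88 without tumour 1 with SOX2). Lyve1, a hyaluronan receptor of perivascular macrophages and of lymphatic endothelium, was at 3.99, 1.66 and 3.85 against 8.34, 10.6 and 6.65 CPM (1.43 ± 0.37 SE, adjusted p = 0.0743 by edgeR), and its highest tumour was tumour 2, unlike most members. The 6 lymphatic markers were also apart in sum, at 17.8 to 46.9 against 73.4 to 79.6 CPM, but without Pdpn the sums overlapped, at 12.5 to 34.7 against 20.1 to 48.6 CPM. Pdpn was called by edgeR, at 10.2, 5.31 and 12.2 against 53.2, 31 and 26.7 CPM, but other cells make it as well, and of the other 5 only Flt4, named after its values were seen, was without overlap. The part of lymphatic endothelium in the Lyve1 difference was not tested.

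The remaining scavenger receptors were near the limit of detection. Folr2, the folate receptor beta of resident macrophages, had 0, 0 and 3 reads in Ivl:BRAFV600E tumours and 68, 19 and 11 in Ivl:BRAFV600E-SOX2LSL tumours. The summed 3 and 98 reads gave a ratio of 24.9 with a 95% interval of 8.29 to 123, which covers counting error only. The fitted log2 fold change of Folr2, 4.37, was 3.42 without Ivl:BRAFV600E-SOX2LSL tumour 1 and 3.71 without Ivl:BRAFV600E tumour 1, and without Ivl:BRAFV600E tumour 3 no fold is given, since the remaining tumours of that group had 0 reads. Vsig4, a complement receptor of resident macrophages, was at 0.951 and 1.62 CPM in tumours 1 and 2 with SOX2 but at 0.144 CPM in tumour 3, within the range of 0.095 to 0.185 CPM without it. Timd4, a receptor for dying cells, had 5 reads in all without SOX2 and 20 with it, and Marco, a scavenger receptor best known from lung and spleen, had 5 and 2. Neither can be read as present or absent at this depth.

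The Spp1, Trem2 and Gpnmb genes, linked to lipid-laden and repair macrophages, had log2 fold changes of 1.50, 1.29 and 1.25. Spp1, osteopontin, was at 5.83, 24.7 and 10.4 CPM without SOX2 and at 90.5, 9.75 and 15.1 CPM with it. That of Spp1, 1.50 ± 0.90 (SE, adjusted p = 0.333 by edgeR), rested on Ivl:BRAFV600E-SOX2LSL tumour 1 and turned to -0.13 without that tumour. Trem2, a lipid-sensing receptor, overlapped between the groups, at 0.375 to 2.71 against 1.88 to 5.74 CPM. The Trem2 difference was 0.68 without the same tumour and 2.21 without Ivl:BRAFV600E tumour 3. Gpnmb, a glycoprotein of lipid-loaded macrophages that melanocytes also make, was at 3.34, 7.95 and 10.4 against 23.5, 13 and 14.6 CPM (1.25 ± 0.43 SE, adjusted p = 0.130 by edgeR). By edgeR and by limma voom 0 of the 3 were called, 1 by DESeq2 (Gpnmb), and 1 had an unadjusted p under 0.05 by edgeR.

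The Fc receptors and integrins were higher with SOX2 in all 5 genes, and edgeR and limma voom called 0 of them. Fcgr3, a low-affinity receptor for IgG, was at 1.88, 5.4 and 4.37 against 27.6, 9.88 and 9.25 CPM, with no overlap (2.01 ± 0.55 SE, adjusted p = 0.0847 by edgeR, and 1.30 without tumour 1 with SOX2). Fcgr1 and Fcgr4 overlapped, at 0.375 to 1.62 against 1.44 to 5.06 CPM and at 0.375 to 0.76 against 0.583 to 2.27 CPM. All 3 Fc receptors had an unadjusted p under 0.05 by edgeR, and DESeq2 called 1 of the 3 (Fcgr3). Itgam, the CD11b chain that pairs with Itgb2, was at 1.02, 1.34 and 2.38 against 9.85, 4.53 and 4.59 CPM (2.01 ± 0.46 SE, adjusted p = 0.0568 by edgeR). Itgax, the CD11c chain of dendritic cells and some macrophages, was at 5.08, 6.28 and 5.18 CPM without SOX2 and at 29, 5.25 and 12 CPM with it, so that tumour 2 with SOX2 lay within the other group. Both integrins had an unadjusted p under 0.05 by edgeR, and both were called by DESeq2.

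Among the 6 innate sensors 1 rose, 4 more had a log2 fold change above 0, and Tlr4 was below 0. Tlr2, the sensor of bacterial lipoproteins (chr3:83836272-83841767), was at 2.18, 2.17 and 3.61 CPM in Ivl:BRAFV600E tumours and at 16, 10.4 and 6.9 CPM in Ivl:BRAFV600E-SOX2LSL tumours. Means were 2.65 ± 0.828 and 11.1 ± 4.61 CPM (SD over 3 tumours each), and it rose by 2.07 ± 0.37 on the log2 scale (SE, adjusted p = 0.0356 by edgeR). Tlr4, the sensor of lipopolysaccharide, which keratinocytes and stromal cells also express, went the other way, at 20.7, 17.3 and 19.8 against 13.9, 14.1 and 9.79 CPM. The groups were apart, and the log2 fold change was -0.61 ± 0.19 (SE, adjusted p = 0.105 by edgeR and 0.0383 by DESeq2). Cd14, the co-receptor of Tlr4, overlapped because Ivl:BRAFV600E tumour 2, at 19.3 CPM, was within the 18.2 to 22.4 CPM of the tumours with SOX2. The other Ivl:BRAFV600E tumours had 4.54 and 6.18 CPM of Cd14.

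The formyl peptide receptors Fpr1 and Fpr2, by which neutrophils and macrophages sense bacterial and mitochondrial peptides, were nearly silent without SOX2. Fpr1 had 2, 3 and 1 reads in Ivl:BRAFV600E tumours and 35, 11 and 38 in Ivl:BRAFV600E-SOX2LSL tumours, a ratio of summed reads of 10.7 (95% counting interval 4.71 to 30). Fpr2 had 1, 6 and 5 reads against 80, 40 and 27. Their log2 fold changes were 3.36 ± 0.72 and 3.07 ± 0.70 (SE), with adjusted p of 0.0503 and 0.0561 by edgeR, and exons of Fpr2 overlap Fpr3 on the same strand. Clec7a, the beta-glucan receptor dectin-1, had groups that only just failed to overlap, with 7.02 CPM in the highest tumour without SOX2 and 7.03 CPM in the lowest with it.

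Nos2, the inducible nitric oxide synthase of inflammatory macrophages (chr11:78920787-78960254), was at 0.477, 0.693 and 0.618 CPM in Ivl:BRAFV600E tumours and at 2.52, 3.11 and 7.84 CPM in Ivl:BRAFV600E-SOX2LSL tumours. It rose by 2.91 ± 0.51 on the log2 scale (SE, adjusted p = 0.0327 by edgeR), and its highest tumour was tumour 3, not tumour 1. Without that tumour the Nos2 difference was 2.24, without tumour 1 with SOX2 it was 3.20, and with each of the 6 tumours left out in turn it stayed called in 2 fits.

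Cd207, langerin, the marker of Langerhans cells, was low in all tumours, at 0.273, 0.37 and 0.713 against 0.56, 1.52 and 2.24 CPM. It overlapped between groups (log2 fold change 1.68 ± 0.62 SE, adjusted p = 0.148 by edgeR), and tumour 1 with SOX2, the highest for most members, was here the lowest of its group.

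Per exon length, which allows levels of different genes to be compared, Apoe and Lyz2 were among the highest members in both genotypes. Apoe was at 37.2 and 99.9 CPM per kilobase (means of Ivl:BRAFV600E and Ivl:BRAFV600E-SOX2LSL tumours), and Lyz2 at 25 and 93.6 CPM per kilobase. The 3 Lyz2 values without SOX2, from 11.6 to 44.9 CPM per kilobase, reached into the range of Apoe there, so this neighbouring pair was not separated beyond its spread. Cd163 moved from rank 33 to rank 21 of the 43 members, and Siglec1 from rank 38 to rank 28. Tlr4 moved from rank 12 to rank 27.

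**Figure D3:**
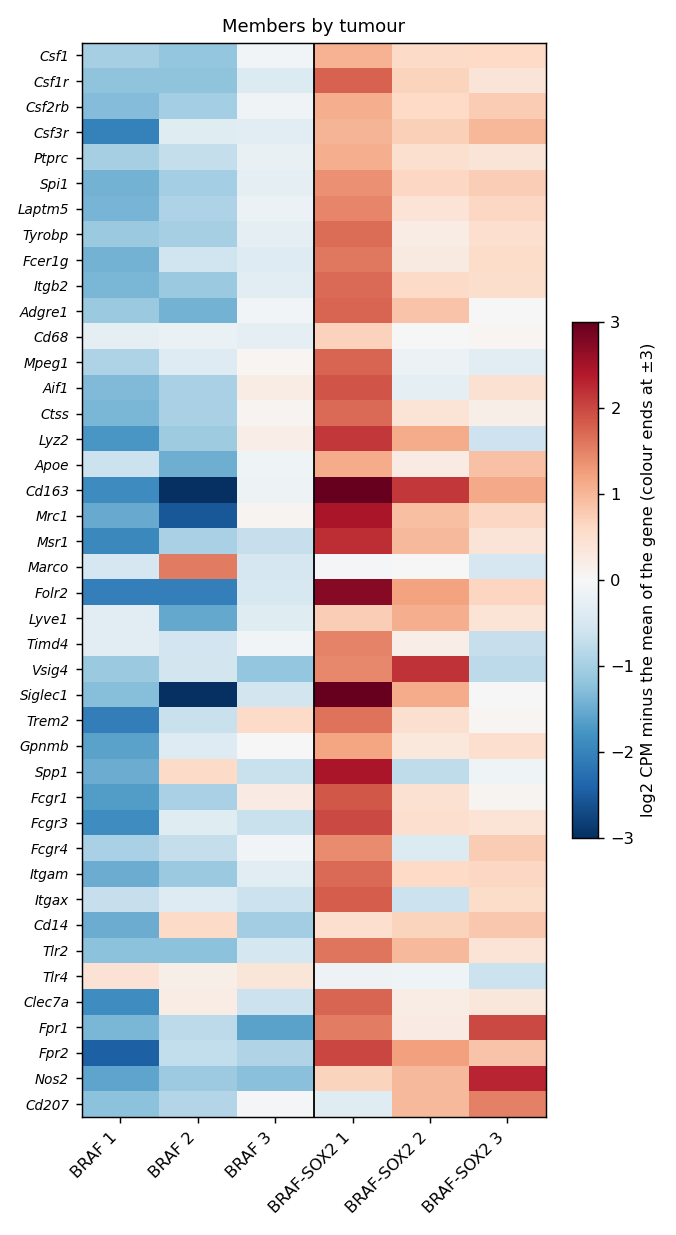
Log2 CPM of 42 members in each tumour minus the mean of that gene over the 6 tumours (prior count of 2); BRAF columns are Ivl:BRAFV600E and BRAF-SOX2 columns Ivl:BRAFV600E-SOX2LSL tumours, red is above and blue below the mean, and the black line parts the genotypes. The column of BRAF-SOX2 tumour 1 holds the highest value for 34 of the 42 genes drawn.

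The tumours of 1 genotype were not alike. Of the 43 members, 35 had their highest CPM in Ivl:BRAFV600E-SOX2LSL tumour 1, 2 in tumour 2 (Lyve1 and Vsig4), 4 in tumour 3 (Cd14, Fpr1, Nos2 and Cd207) and 2 in an Ivl:BRAFV600E tumour (Marco and Tlr4). Over the members, the median ratio of tumour 1 to the mean of the other Ivl:BRAFV600E-SOX2LSL tumours was 2.22. Among the Ivl:BRAFV600E tumours, tumour 3 was the highest for 29 members, tumour 2 for 12 and tumour 1 for 2. Without Ivl:BRAFV600E-SOX2LSL tumour 1, 39 of 42 members tested had a positive log2 fold change, the median was 1.26, and edgeR called 7 members (6.69% of all genes). The fold of several members named above for their levels moved by over 1.5 times in that fit, with the log2 fold change going from 1.56 to 0.92 for Ctss, from 1.62 to 0.73 for Aif1, from 1.69 to 0.93 for Fcgr1, from 1.48 to 0.64 for Itgax and from 1.51 to 0.83 for Clec7a. Without Ivl:BRAFV600E tumour 2 it went from 1.03 to 1.92 for Cd14 and from 1.51 to 2.12 for Clec7a. Without Ivl:BRAFV600E tumour 3 it went up to 2.31 for Aif1 and to 2.46 for Fcgr1.

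A second comparison set each member beside the leucocyte level of its own tumour, read from the 6 pan-leucocyte members. That yardstick includes myeloid genes such as Spi1, so it is not a level of leucocytes of every kind. The mean log2 CPM of the 6 pan-leucocyte members was 2.05, 2.44 and 3.04 in Ivl:BRAFV600E tumours and 4.81, 3.76 and 3.88 in Ivl:BRAFV600E-SOX2LSL tumours. The difference of 1.64 had p = 0.1 by an exact two-sided permutation test, the smallest p that 3 tumours against 3 can give. The relative level of a member is its log2 CPM minus this mean in the same tumour. For 27 of the other 37 members the relative levels of the genotypes overlapped. They were without overlap and higher with SOX2 for 4 members (10.8%), against 0.987% of all genes, and without overlap and lower for 6 (16.2%), against 69.8% of all genes. Both background shares follow from subtracting a reference that was itself higher by 1.64, so nothing is read from the member shares against them.

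The 4 members that were higher relative to the pan-leucocyte members were Cd163, by 2.80, Folr2, by 1.41, Fpr2, by 1.08, and the integrin Itgam, by 0.30 on the log2 scale (exact permutation p = 0.1 each). The relative level of Cd163 was -1.91, -5.04 and -1.16 without SOX2 and 0.61, 0.38 and -0.71 with it. Its difference was 1.63 without Ivl:BRAFV600E tumour 2 and 3.57 without Ivl:BRAFV600E tumour 3, the range with a tumour left out. That of Itgam was the tightest of the list, at -1.91, -1.94 and -1.75 against -1.50, -1.56 and -1.66. Folr2 and Fpr2 are low, and their relative levels depend on the prior count, 2 here. With a prior count of 0.5 the Folr2 difference was 2.76.

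Tlr4, by -2.27, Marco, by -1.99, Cd68, by -1.15, Timd4, by -0.99, and Mpeg1, by -0.81, were among those lower relative to the pan-leucocyte members (exact permutation p = 0.1 each). The reference was itself higher by 1.64 with SOX2, so a gene at equal CPM in both genotypes is lower on this scale. Timd4 had 5 reads without SOX2 and 20 with it, and Marco 5 and 2, so nothing is read from their relative levels. The relative level of Cd68 was 2.13, 1.80 and 1.14 without SOX2 and 0.33, 0.68 and 0.61 with it. Marco and Timd4, with few reads, overlapped between groups at a prior count of 0.5. With the mean of the 7 general macrophage members as the reference instead, of which each is then also part of its own yardstick, only Tlr4 stayed lower without overlap and 10 members were higher. Called genes of the first comparison such as Csf1r (0.26), Csf2rb (-0.01) and Tlr2 (0.35) overlapped in relative level, and so did Nos2 (0.96), whose tumour 1 with SOX2 lay at -3.43 within the range of -3.58 to -2.83 without it.

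**Figure D4:**
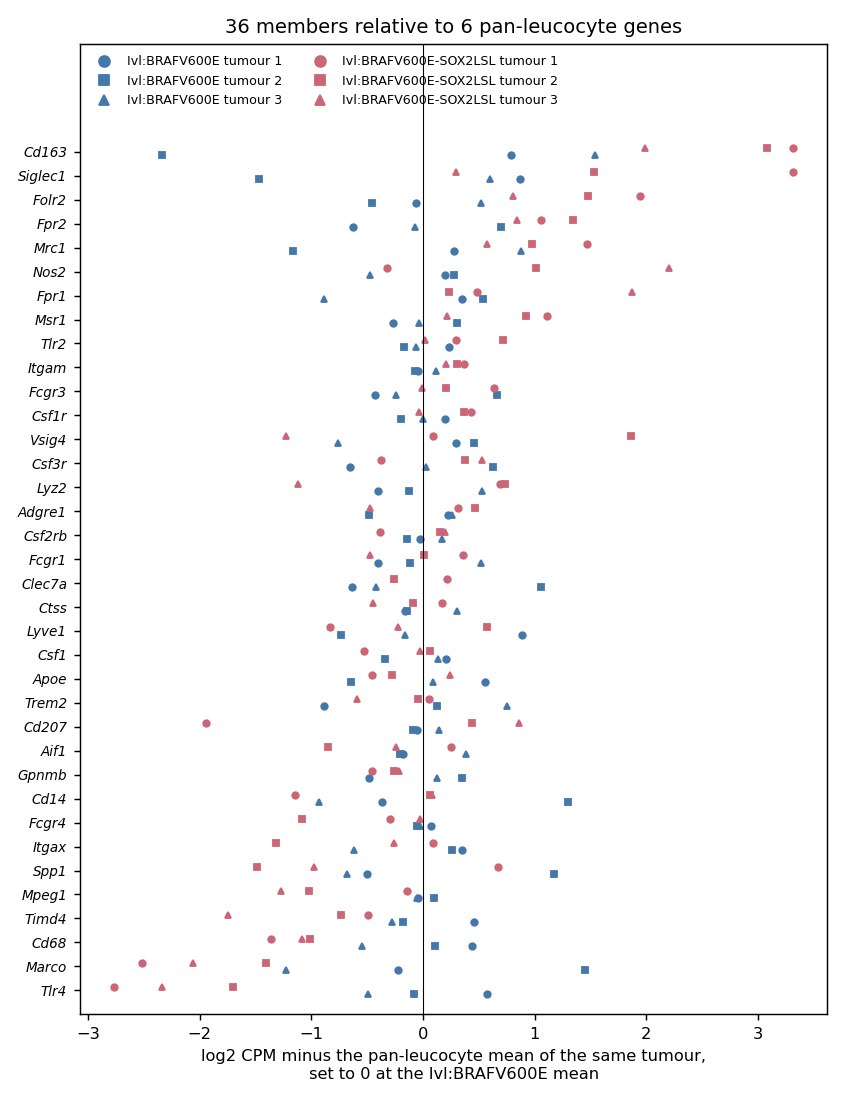
Relative level of 36 members outside the pan-leucocyte group, as log2 CPM minus the pan-leucocyte mean of the same tumour, shifted so that the Ivl:BRAFV600E mean of each gene is 0 (vertical line); each point is 1 tumour. Cd163 at the top and Tlr4 at the bottom have the groups fully apart, and most genes between them overlap.

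Other genes of the myeloid pathway, 76 tested of 77 listed, had a median log2 fold change of 1.32, with 68 above 0. By edgeR 5 were higher and 1 was lower (2.39% and 1.51% of all genes), and the CPM of the groups did not overlap for 41 that were higher and 3 that were lower (18.2% and 16.0% of all genes). The smallest p-values belonged to Lyn, a Src-family kinase of myeloid and B cells, Cd80, a costimulatory ligand, and Ncf4, a subunit of the phagocyte NADPH oxidase, which produces reactive oxygen. Lyn was at 9.99, 9.1 and 10 against 44.4, 25.2 and 26 CPM (1.71, adjusted p = 0.0238 by edgeR). Ncf4 was at 0.648, 1.43 and 0.95 against 5.04, 5.02 and 3.97 CPM (2.22, adjusted p = 0.0267 by edgeR). Cd80 had a log2 fold change of 1.75 (adjusted p = 0.0267 by edgeR). Others called, named after their values were seen, were Coro1a (1.59), which was higher, and the transcription factor gene Maf, which was lower, at 155, 225 and 207 against 77.4, 107 and 90.4 CPM (-1.10, adjusted p = 0.0317 by edgeR). Which cells of the tumour carried the Maf reads was not tested.

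Some lists of markers of other cells also differed between genotypes, not all in the direction of the members, while others overlapped. Their part in the members' differences was not tested. Skeletal-muscle genes differed most, with a summed 6.98 to 21.9 CPM without SOX2 and 892 to 3790 CPM with it and 15 of 17 called by edgeR. Leaving these 17 rows out before scaling gave 6 called members (3.82% of all genes), a setting that changes the scaling and not the tissue in the tumours. The mast cell list was at 12.6 to 20.7 against 47.6 to 53.7 CPM, with 0 of 9 called by edgeR, 6 at an unadjusted p under 0.05, 3 called by DESeq2 and 1 by limma voom. The sum of the 10 fibroblast markers overlapped, at 869 to 5430 against 4230 to 9080 CPM, but the log2 fold change was positive for 9 of them, and 3, named after their values were seen, were higher without overlap (Fbln1, Pdgfra and Thy1). By edgeR 0 of the 10 were called and 3 had an unadjusted p under 0.05, while DESeq2 called 3 and limma voom 0. The 12 keratinocyte markers were lower in sum, at 24600 to 82200 CPM with SOX2 against 117000 to 188000 CPM. By edgeR 0 of the 12 were called and 6 had an unadjusted p under 0.05, while DESeq2 called 5 and limma voom 0. Of the 12, 5 were lower without overlap, and Dsg3, a desmosomal cadherin named after its values were seen, was higher, at 736, 880 and 770 against 911, 1590 and 1360 CPM. The lowest keratinocyte sum and the highest fibroblast sum both belonged to Ivl:BRAFV600E-SOX2LSL tumour 1, in which most members peaked, as did the adipocyte sum of 45.8 CPM, against 0.518 to 1.66 CPM in the other 5 tumours. Blood endothelial markers were at 177 to 196 against 182 to 215 CPM.

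Neutrophils share several members, among them Csf3r, Fpr1, Fpr2 and Itgam. The neutrophil markers were apart in sum, at 344 to 1240 against 1750 to 2160 CPM, but without Ltf the sums overlapped, at 344 to 1240 against 677 to 1990 CPM. Most of the sum without Ltf was S100a8 and S100a9, named after their values were seen. S100a8 was at 175, 197 and 635 against 168, 971 and 529 CPM, and S100a9 at 143, 198 and 552 against 174, 950 and 766 CPM. The sums therefore mostly follow these genes and Ltf, and are not read as a level of neutrophils. The part of neutrophils in the members' differences was not tested. Of the 14 tested, 14 had a log2 fold change above 0, 5 were higher without overlap (Ltf and, named after their values were seen, Mmp8, Mmp9, Cxcr2 and Ly6g), and 5 had an unadjusted p under 0.05 by edgeR. DESeq2 called 4 and limma voom 2. The 1 called by edgeR was Ltf, lactoferrin, which glandular epithelium also makes, at 0.0682, 0.462 and 1.62 against 1070, 168 and 451 CPM (9.69, adjusted p = 0.0164 by edgeR). The defining marker Ly6g was at most 0.0475 CPM without SOX2 and 0.181 to 0.196 CPM with it, near the level of 3 reads. T, NK and B cell markers overlapped in sum, at 2.96 to 8.65 against 5.86 to 11.6 CPM, and 0 of 13 were called by edgeR, DESeq2 or limma voom, with 1 at an unadjusted p under 0.05 by edgeR. The sum of the 13 dendritic cell markers overlapped too, at 627 to 844 against 553 to 819 CPM, but most of it was Cd24a, at 590 to 832 against 375 to 505 CPM, which epithelial cells also express, as they do Epcam, the 1 marker called by edgeR. Zbtb46, at 1.77, 1.29 and 1.95 against 2.77, 2.43 and 2.74 CPM, and Cd209a, at 0.443, 0 and 0.285 against 3.3, 0.583 and 0.578 CPM, were higher without overlap. Cd24a, Zbtb46 and Cd209a were named after their values were seen. In all, 4 of the 13 had an unadjusted p under 0.05 by edgeR and DESeq2 called 2. Erythroid markers were highest in Ivl:BRAFV600E tumour 2, at 1570 CPM against 37.5 to 96.2 CPM in the others.

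**Figure D5:**
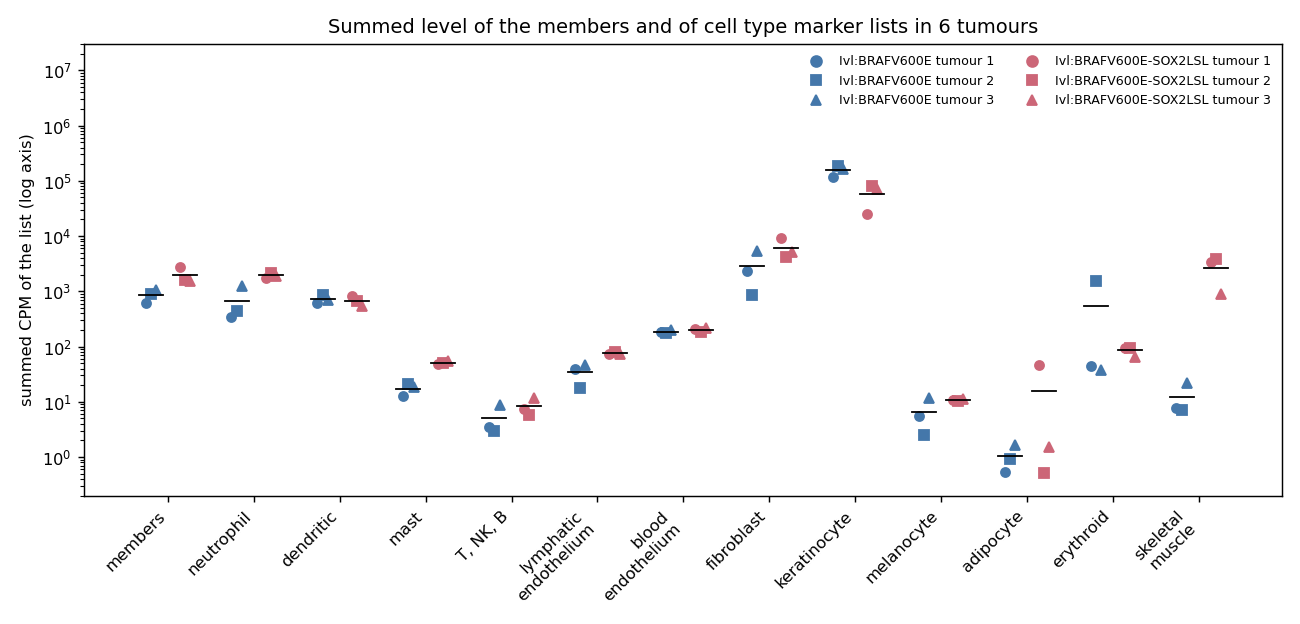
Summed CPM, on a log axis, of the 43 members and of 12 lists of cell type markers in each of the 6 tumours; black lines are group means. The members lie at 611 to 1060 CPM without SOX2 and at 1560 to 2730 CPM with it, while the skeletal-muscle sum is the one that differs most.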

How the data were processed

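The authors sequenced ribosomal RNA-depleted total RNA of whole tumours as paired ends and deposited raw read counts per gene, without normalisation, after FastQC 0.11.8, Trim Galore, HISAT2 2.1.0 (GRCm38) and featureCounts (Subread 1.6.3). Multimapping and strand settings are not given in the sources used here. Of the 7 columns, 6 were put in groups through the mouse names in the Source Data of the study, and 1, which matched no listed mouse, was not used. The labels hold 4 Ivl:BRAFV600E and 3 Ivl:BRAFV600E-SOX2LSL tumours, so 1 labelled Ivl:BRAFV600E tumour was not analysed here. The 24433 genes that reached 5 reads in 1 or more tumours were scaled by TMM and compared with edgeR 4.0.16 (quasi-likelihood test, Benjamini-Hochberg over all genes, threshold 0.05) in R 4.3.3. Standard errors were taken from the fitted coefficient and its F statistic. CPM are after TMM, and log2 CPM use a prior count of 2. Exon lengths and coordinates are from GENCODE M21. Alternatives were DESeq2 1.42.0, limma 3.58.1 (voom), other scalings and filters, sex as a covariate, genes removed before scaling, other references and prior counts for the relative level, and each tumour left out. Scripts were tested on simulated data. Some results are not reported here. The rule for names was the members and at most 3 called genes of each other list, and genes outside it are marked as named after their values were seen. Sums without Ltf or Pdpn were chosen after seeing the data. Members and lists were chosen with earlier results of these data known. Separate mice served as replicates, and p-values measure the spread between these tumours. Figures used matplotlib 3.10.9 and pandas 2.3.3 in Python 3.11.15.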

Additional observations from a re-analysis of the deposited data

How the results depend on the processing

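No paired analysis was possible because the columns of the table carry no replicate number. Only 3 tumours per genotype limit every call, and depth limits Marco, Timd4, Folr2 and Vsig4. Members called numbered 6, with 31 by DESeq2, 3 by limma voom, 22 with no filter on low counts, 11 with filterByExpr, 2 with sex as a covariate, and 0 to 7 with each tumour left out. The 31 by DESeq2 stood against 18.2% of the 20046 genes to which it gave an adjusted p. The 22 stood against 5.24%, the 11 against 7.37% and the 2 against 0.933% of all genes tested in the same fit. Other myeloid genes called numbered 6, with 33 by DESeq2, 19 with no filter, 0 by edgeR with sex as a covariate (39 at an unadjusted p under 0.05), and 0 to 9 with each tumour left out. Cell type markers called numbered 18, with 35 by DESeq2, 9 by limma voom, 3 without the skeletal-muscle genes, which by construction removes most of them, and 0 to 23 with each tumour left out. In the fits that left 0 calls by edgeR, 33 to 40 other myeloid genes and 41 markers had an unadjusted p under 0.05. Members whose relative levels did not overlap numbered 10, and 10 to 18 with each tumour left out, a count that leaving out a tumour can only raise. Among single members, Spp1 changed direction, with a range of -0.13 (without Ivl:BRAFV600E-SOX2LSL tumour 1) to 2.25 with each tumour left out, and no other member did in any alternative run. The cause of these shifts in counts was not tested. The scalings by DESeq2 size factors and upper quartiles called 4 members each and moved the median of all genes to 0.03 and -0.06.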
